A study of Mus musculus with 8 samples.

Results

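The ectodysplasin pathway genes Eda, Edar, Eda2r, Edaradd and Traf6, together with the related receptor genes Tnfrsf19 and Relt, were compared between secretory and maturation stage enamel organs of the mouse first molar. These 7 genes were found by their symbols among the 54532 genes of the RNA-seq count table, as members of the pathway and its receptor family, and they were chosen with earlier results of these data known. First molars were taken from untreated wt pups of the C57BL/6 strain at postnatal day 5 (P5, secretory stage) and postnatal day 12 (P12, maturation stage), and the enamel organs of several pups were pooled for each library (n = 4 pools at each age). Both groups shared the strain, the genotype and the lack of treatment, so that age is the only difference in their labels. The labels call the cells epithelially derived, but their protocol homogenized whole molars after removal of the pulp, and polyadenylated RNA was captured.

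Ectodysplasin, encoded by Eda, is a ligand of the TNF family that is cut from the cell surface by furin. Its form EDA-A1 binds the receptor Edar, whose death domain recruits the adaptor Edaradd, and its form EDA-A2 binds the receptor Eda2r, and both routes can use Traf6 to activate NF-kB. Loss of EDA-A1 signalling causes hypohidrotic ectodermal dysplasia, with missing or misshapen teeth, sparse hair and lack of sweat glands. Tnfrsf19 (also called Troy) is a receptor close in sequence to Edar and Eda2r, and Relt is a TNF receptor family member in which mutations cause amelogenesis imperfecta, an inherited defect of enamel.

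Of the 7 genes, 3 were lower at P12 (Relt, Edar and Eda), with the largest change in Relt. Such calls were common in these data, since 28.4% of all genes tested were lower at P12. Relt fell 9.28-fold between the mean normalized counts. By mean level per kilobase it went from rank 1 of 28 TNF receptor genes at P5 to rank 5 at P12, where it overlapped with the neighbouring ranks. Eda and its receptor Edar fell 1.66-fold and 1.94-fold. Edaradd, Traf6 and Tnfrsf19 did not pass the test, and Eda2r was close to the limit of detection at both ages.

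The coding sequences of the ligand are shown first because the receptor that ectodysplasin binds depends on a difference of 6 bases. GENCODE release M21 lists 12 transcripts of Eda, of which 9 are protein coding. Among these, 3 code for the 6 bases, 2 join the neighbouring bases without them, and 4 differ in other ways. The bases are the end of an exon at chrX:100395144-100395149 (GRCm38, plus strand), and they add 2 residues. The longest form, of 391 residues, and a form of 386 residues, which also lacks another 9 bases, read as follows around this point, with the 6 bases in capitals.
Eda-206: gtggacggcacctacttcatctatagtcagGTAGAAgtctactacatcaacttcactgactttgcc
Eda-205: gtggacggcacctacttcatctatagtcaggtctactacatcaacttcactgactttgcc
The deposited counts are summed over all transcripts of a gene, so that the ligands for Edar and for Eda2r, and the other transcripts of Eda, are not separated in the level of Eda given here.

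The sequences upstream of the transcription start are shown for the 3 genes that fell. They are 250 bases each, before the RefSeq start on GRCm38.p6, and capitals mark the GC box GGGCGG on either strand. The Relt gene of GENCODE M21 reaches chr7:100863446, so that the last bases of the Relt sequence lie inside that gene.
Eda, chrX:99975356-99975605, plus strand: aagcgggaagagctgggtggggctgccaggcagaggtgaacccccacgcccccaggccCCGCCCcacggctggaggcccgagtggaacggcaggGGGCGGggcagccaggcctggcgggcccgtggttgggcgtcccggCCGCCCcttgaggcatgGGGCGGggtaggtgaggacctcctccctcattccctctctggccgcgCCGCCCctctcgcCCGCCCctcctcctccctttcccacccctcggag
Edar, chr10:58675697-58675946, minus strand: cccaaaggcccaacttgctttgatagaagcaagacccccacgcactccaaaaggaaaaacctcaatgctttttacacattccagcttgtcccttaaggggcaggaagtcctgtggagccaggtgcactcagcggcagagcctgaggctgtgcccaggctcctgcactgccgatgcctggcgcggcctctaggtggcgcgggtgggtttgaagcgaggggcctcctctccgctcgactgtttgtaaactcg
Relt, chr7:100863414-100863663, minus strand: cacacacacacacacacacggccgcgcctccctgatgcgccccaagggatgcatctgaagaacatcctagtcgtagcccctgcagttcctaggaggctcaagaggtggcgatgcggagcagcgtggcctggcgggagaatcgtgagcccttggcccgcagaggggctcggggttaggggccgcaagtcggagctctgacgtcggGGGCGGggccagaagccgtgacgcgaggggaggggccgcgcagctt
The Eda sequence held 6 GC boxes, the Relt sequence held 1 and the Edar sequence held 0. Over the RefSeq windows from 250 bases before to 50 bases after the start, all 7 genes were matched, with 8 windows because Tnfrsf19 has 2. A GC box occurs in 35.7% of all 32851 such windows, and here in those of Eda (7), Traf6 (2), Relt (1), Eda2r (1) and one of those of Tnfrsf19 (3). The TATA box TATAAA and the CCAAT box CCAAT, on either strand, are in 13.6% and 37.4% of all windows, and among these genes only the Eda2r window held them. The kappaB consensus, found in 8.46% of all windows, was in 0 of the 8 windows. The Relt window held 30 CpG dinucleotides, more than 88.3% of all windows, while the median of all windows was 7. These matches describe the sequence letters and not binding.

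The 8 libraries held between 16574548 and 22013456 counts, and the 20 most abundant genes took 34.1% to 35.7% of them at P5 and 16.8% to 19.0% at P12. Secretory ameloblast markers (Amelx, Ambn, Enam and Mmp20) had a summed CPM (counts relative to the library total) of 231600 to 255400 at P5 and of 14690 to 35210 at P12. Maturation markers (Klk4, Amtn, Odam, Slc24a4 and Wdr72) summed to 601 to 2028 CPM at P5 and to 22120 to 27420 CPM at P12, and so both sets followed the labelled stages. Odontoblast and bone markers (Dspp, Dmp1, Bglap, Ibsp, Col1a1, Col1a2 and Phex) summed to 47290 to 57290 CPM at P5 and to 49720 to 67630 CPM at P12, so that the libraries were not purely epithelial. Oral mucosa markers summed to 39.2 to 74.9 CPM at P5 and to 696 to 3690 CPM at P12. The marker sums of osteoclasts, leukocytes, endothelium and Schwann cells were also higher in every P12 library than in any P5 library, while that of skeletal muscle was lower. Not every single marker followed its sum. The means of Calcr (osteoclast) and Sox10 (Schwann cell) were lower at P12, with overlap between the ages. All markers of the 9 lists had counts in at least 1 library. P12 replicate 4 differed most from the others, with the most secretory and the least mucosa marker counts of its age, and P5 replicate 5 had the least maturation marker counts. In such bulk samples, fewer cells of a type and less RNA per cell cannot be told apart.

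Normalized counts were scaled by TMM to a common effective library of 19006280 counts. Changes between the ages were tested by the quasi-likelihood method of edgeR, and p-values were adjusted (Benjamini-Hochberg) across the 16440 genes with enough counts for its filter. With a threshold of 0.05, 57.2% of these genes were called, 28.4% as lower at P12 and 28.8% as higher. The members must be read against this: 3 of the 6 that passed the filter were called, all as lower. Without overlap between the ages were 52.5% of all tested genes, and 2 of the 6 tested members (Eda and Relt), besides Eda2r, which did not pass the filter. An exact permutation test (two-sided, on log2 normalized counts) was added for each member, for which 4 against 4 libraries cannot give a p below 0.0286.

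**Figure D1:**
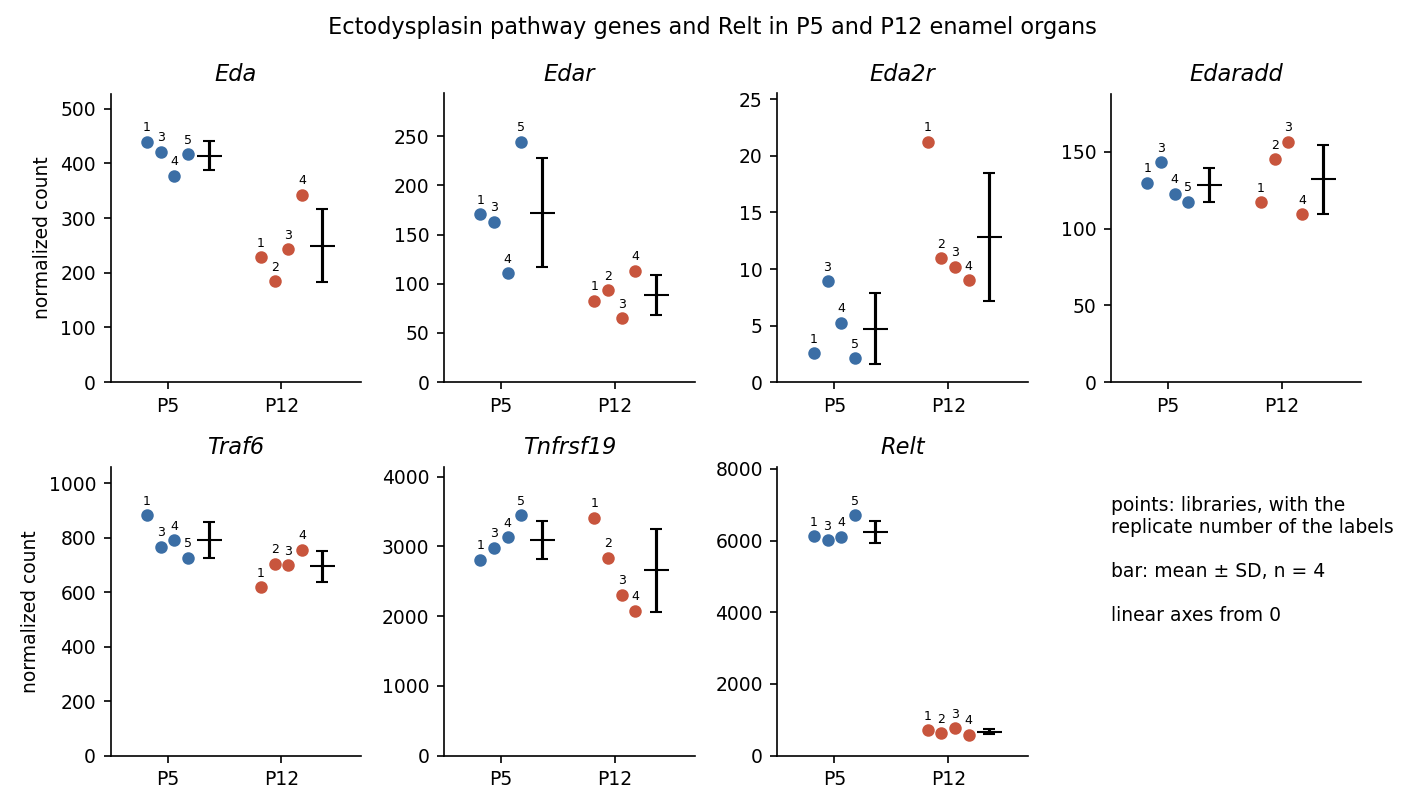
Normalized counts (vertical axes, linear from 0) of the 7 genes in each P5 and P12 library (horizontal axes), with replicate numbers beside the points and bars for the mean ± SD (n = 4). Relt lies at 6008 to 6709 at P5 and at 590.3 to 760 at P12, Eda and Eda2r also do not overlap between the ages, and the other genes do.

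Eda, the ligand gene (ENSMUSG00000059327, chrX:99975606-100400762, plus strand, GRCm38), had normalized counts of 439.7, 421, 377 and 417 in P5 replicates 1, 3, 4 and 5. In P12 replicates 1 to 4 they were 229, 185, 243 and 342. Every P5 library was above every P12 library, and the P12 libraries were the more spread of the 2 groups, with P12 replicate 4 as their highest. The mean was 414 ± 26.4 at P5 and 249.7 ± 66.5 at P12 (SD, n = 4). Eda was lower at P12 by edgeR (log2 fold change -0.73, SE 0.16, adjusted p = 0.00197), and the exact permutation p was 0.0286, the smallest possible here. It was called in 18 of 18 alternative fits. In the P12 libraries the secretory marker sum, of 14690, 16040, 25950 and 35210 CPM in replicates 1 to 4, was also highest in replicate 4, and its part in the level of Eda was not tested. Furin, the protease that releases ectodysplasin, rose (log2 fold change 0.38, SE 0.08, edgeR adjusted p = 0.00246), from 3761 ± 76.8 to 4895 ± 609.9 (SD, n = 4).

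Edar, the receptor of EDA-A1 (ENSMUSG00000003227, chr10:58600789-58675654, minus strand), had normalized counts of 171, 163, 111 and 244.5 in P5 replicates 1, 3, 4 and 5. Its values in P12 replicates 1 to 4 were 82.8, 93.7, 64.9 and 113. The ages overlapped, because P5 replicate 4 was slightly below P12 replicate 4, and the highest library was P5 replicate 5. The mean fell from 172 ± 55.0 to 88.7 ± 20.3 (SD, n = 4). Its log2 fold change was -0.97 (SE 0.24, edgeR adjusted p = 0.00481). The exact permutation p was 0.0571. Edar was called in 18 of 18 alternative fits, and its log2 fold change lay between -1.13 and -0.75 when each library was left out in turn. The call was close to the threshold under scaling by total count (-0.60) and with the replicate number as a block (-0.79), with an edgeR adjusted p of 0.0441 in each.

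The ratio of Edar to Eda within a library, which does not depend on the scaling between libraries, changed by -0.16 on the log2 scale, from -1.31 ± 0.41 at P5 to -1.48 ± 0.38 at P12 (SD, n = 4, exact permutation p = 0.571). This test does not show that the pair changed equally, since the spread of the ratio over libraries was larger than its difference.

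Eda2r, the receptor of EDA-A2 (ENSMUSG00000034457, chrX:97333840-97377216, minus strand), had only 2, 8, 4 and 2 reads in P5 replicates 1, 3, 4 and 5. In P12 replicates 1 to 4 it had 29, 13, 11 and 9 reads. On the normalized scale these were 2.12 to 8.94 at P5 and 9.04 to 21.3 at P12. The groups did not overlap, but the highest P5 and the lowest P12 libraries almost met, and P12 replicate 1 stood above the rest. Over all libraries of an age, 16 reads at P5 and 62 at P12 gave a P12 to P5 ratio of 2.83 relative to effective library size, with a 95% exact interval of 1.61 to 5.25 that covers counting error only. The exact permutation p was 0.0286. Eda2r did not pass the filter on low counts. In an edgeR fit with no filter its log2 fold change was 1.46 (adjusted p = 0.0456), and by DESeq2 it was 1.46 (adjusted p = 0.0567), fits that differed both in the tool and in the genes kept. With single libraries left out, Eda2r passed the edgeR filter in 5 fits, through its P12 libraries. It was not called without P5 replicate 1, 4 or 5 (edgeR adjusted p = 0.0782, 0.0552 and 0.0842). It was called without P5 replicate 3 or P12 replicate 4 (edgeR adjusted p = 0.0135 and 0.0213). These fits kept other genes than the fit with no filter, so that their adjusted p-values are not directly comparable with it.

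Edaradd, the death domain adaptor of Edar (ENSMUSG00000095105, chr13:12472632-12520438, minus strand), had normalized counts of 130, 143, 123 and 117 in P5 replicates 1, 3, 4 and 5. In P12 replicates 1 to 4 they were 117, 145, 157 and 109. The P12 libraries lay on both sides of the P5 range. The mean was 128 ± 11.1 at P5 and 132 ± 22.4 at P12 (SD, n = 4). The log2 fold change was 0.04 (SE 0.15, edgeR adjusted p = 0.827).

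Traf6, the ubiquitin ligase that passes the signal to the kinases upstream of NF-kB (ENSMUSG00000027164, chr2:101678429-101701669, plus strand), had normalized counts of 883, 767, 791 and 727 in P5 replicates 1, 3, 4 and 5. Those of P12 replicates 1 to 4 were 619, 705, 699.6 and 756. The ages overlapped through P12 replicate 4 and P5 replicate 5. The mean was 792 ± 66.2 at P5 and 695 ± 56.7 at P12 (SD, n = 4). The log2 fold change was -0.19 (SE 0.08, edgeR adjusted p = 0.0709), which did not pass the test. Without P5 replicate 5 it was -0.23 (edgeR adjusted p = 0.039), and without P12 replicate 4 it was -0.24 (edgeR adjusted p = 0.025), so that either library decided the call. With both left out, Traf6 was called (-0.27, edgeR adjusted p = 0.0083), and Eda, Edar and Relt stayed called, at -0.92, -0.88 and -3.12.

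Scaling by total count, in place of TMM, shifted all genes upwards, their median from 0.01 to 0.38 (log2), with 8885 genes called as higher and 2330 as lower in place of 4735 and 4676. It turned the sign of Traf6 (to 0.18, edgeR adjusted p = 0.045) and of Tnfrsf19 (to 0.16, edgeR adjusted p = 0.363). Under it Edaradd was called as higher (log2 fold change 0.42, edgeR adjusted p = 0.036), so that 5 members were called. Relative to that shift of all genes, Traf6 was at -0.20, Tnfrsf19 at -0.22 and Edaradd at 0.04. Eda (-0.37, edgeR adjusted p = 0.0404), Edar (-0.60, edgeR adjusted p = 0.0441) and Relt (-2.84) kept their sign and their call under this scaling.

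Tnfrsf19, the receptor called Troy (ENSMUSG00000060548, chr14:60963875-61046490, minus strand), had normalized counts of 2808, 2982, 3135 and 3448 in P5 replicates 1, 3, 4 and 5. In P12 replicates 1 to 4 they were 3412, 2837, 2307 and 2079. P12 replicate 1 was as high as the highest P5 library, whereas P12 replicates 3 and 4 were below all P5 libraries. The mean was 3093 ± 272 at P5 and 2659 ± 594 at P12 (SD, n = 4), and the log2 fold change was -0.22 (SE 0.14, edgeR adjusted p = 0.196). Without P12 replicate 1 it was -0.37 (edgeR adjusted p = 0.0152), and without P5 replicate 5 and P12 replicate 4 it was -0.059 (edgeR adjusted p = 0.666). The oral mucosa, leukocyte and Schwann cell marker sums were also lower in P12 replicates 3 and 4 than in P12 replicates 1 and 2, and the odontoblast and bone sum was highest in P12 replicate 1 (67630 CPM) and lowest in P12 replicate 4 (49720 CPM). Their part in the spread of Tnfrsf19 was not tested.

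Relt, the receptor gene linked to enamel defects (ENSMUSG00000008318, chr7:100845847-100863446, minus strand), had normalized counts of 6124, 6008, 6111 and 6709 in P5 replicates 1, 3, 4 and 5. They were 716, 623, 760 and 590.3 in P12 replicates 1 to 4. The ages were far apart, and the spread within an age was small beside the difference. The mean fell from 6238 ± 318 to 672 ± 79.0 (SD, n = 4). Its log2 fold change was -3.21 (SE 0.09, edgeR adjusted p = 7.0e-10), and the exact permutation p was 0.0286. Among the 16440 genes tested, Relt ranked 24 by p-value and 218 by the size of its fall. Leaving out each library in turn kept its log2 fold change between -3.27 and -3.16. The secretory ameloblast markers fell together with Relt over the ages, with a median log2 fold change of -4.16 over the 4 genes. Within P12, Relt was lowest in replicate 4, which had the highest secretory marker sum, and highest in replicate 3, which had the next highest sum. The part of the secretory markers in the fall of Relt was not tested.

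**Figure D2:**
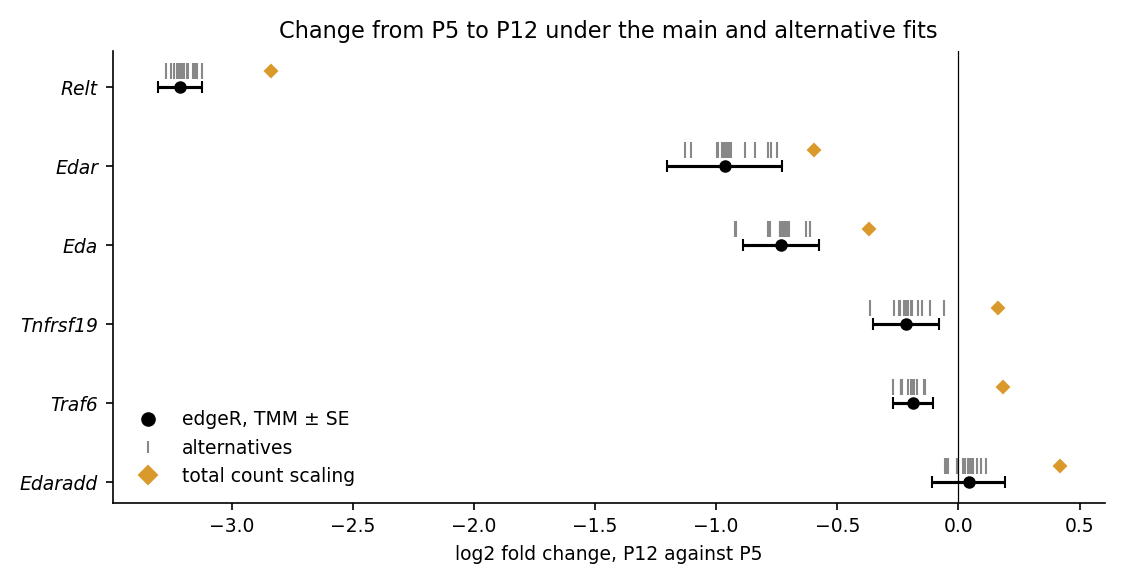
Log2 fold changes (horizontal axis, P12 against P5) of the 6 genes that passed the filter, as black points with the SE from edgeR, grey ticks for the other fits and orange diamonds for scaling by total count. Relt, Edar and Eda stay below 0 in every fit, while Traf6 and Tnfrsf19 move from -0.19 and -0.22 to 0.18 and 0.16 under scaling by total count.

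The ratios of the other members to Edar were tested in the same way, 6 ratios in all with that of Edar to Eda. The ratio of Relt to Edar changed by -2.30 on the log2 scale, from 5.22 ± 0.41 to 2.93 ± 0.50 (SD, n = 4), and that of Eda2r to Edar by 2.28, from -5.02 ± 1.10 to -2.74 ± 0.68. These pairs did not overlap between the ages (exact permutation p = 0.0286 each, 0.0686 after adjustment over the 6 ratios). The ratios of Edaradd, Traf6 and Tnfrsf19 to Edar were higher at P12 by 0.95, 0.74 and 0.68, with overlap between the ages (exact permutation p = 0.0571 each, 0.0686 after adjustment). None of the 6 ratios passed an adjusted p of 0.05, and with 4 libraries against 4 even a single exact test cannot go below 0.0286.

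Levels were compared between genes only as normalized counts per kilobase of gene length. At P5 the order was Relt (1902 ± 97.1), Tnfrsf19 (653 ± 57.4), Traf6 (100.5 ± 8.40), Eda (60.6 ± 3.87), Edar (47.4 ± 15.1), Edaradd (19.2 ± 1.67) and Eda2r (0.802 ± 0.533), each as the mean ± SD of 4 libraries. Of the neighbours in this order, only the ranges of Eda and Edar overlapped. At P12 the order began with Tnfrsf19 (561 ± 125), and Relt was second (205 ± 24.1), above Traf6 (88.2 ± 7.20). It went on with Eda (36.6 ± 9.75), Edar (24.4 ± 5.59), Edaradd (19.8 ± 3.36) and Eda2r (2.18 ± 0.960). At P12 the range of Edar overlapped both with that of Eda and with that of Edaradd, so that these neighbours did not differ beyond their spread.

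**Figure D3:**
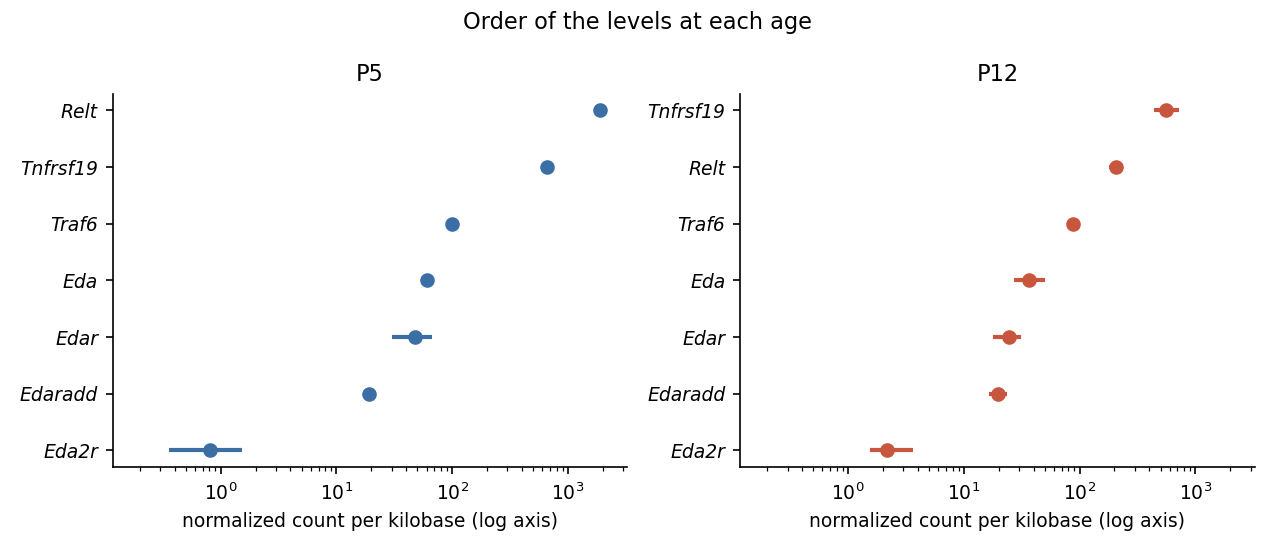
Normalized counts per kilobase (horizontal log axes) of the 7 genes, ordered by their mean at P5 (left) and at P12 (right), with points for the mean and lines for the range of 4 libraries. Relt leads at P5 with 1902 and is second to Tnfrsf19 at P12 with 205, and Eda2r is last at both ages.

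Within the TNF receptor family, taken as Edar, Eda2r, Tnfrsf19, Relt and 24 other genes, Relt made up 48.7% to 52.4% of the summed level per kilobase at P5 and 6.05% to 7.92% at P12. By its mean level it ranked 1 of 28 at P5 and 5 at P12. Its share at P12 overlapped with that of Ltbr at rank 4 (7.21% to 8.93%) and that of Tnfrsf11b at rank 6 (2.87% to 13.1%). Tnfrsf19 ranked 2 at both ages, with 15.8% to 18.7% of the sum at P5 and 16.4% to 21.8% at P12. Edar moved from rank 9 to rank 16, and never exceeded 1.72% of the sum. Its share, of 0.82% to 1.72% at P5 and 0.61% to 1.17% at P12, overlapped with those of both neighbouring ranks at each age. At P12 the first rank belonged to Tnfrsf12a, the receptor of the ligand TWEAK, whose level per kilobase was 245 at P5 and 706 at P12. A share of a sum moves with the other genes of the sum, and the fall of Relt itself lifts the shares of the rest.

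Of the 24 other TNF receptor family genes, 20 passed the filter, 9 of them rose, 1 fell and 10 did not pass the test, with a median log2 fold change of 0.45 where that of all tested genes was 0.01. Thus 10 of 20 were called, beside 57.2% of all tested genes. The risers with the largest changes were Tnfrsf13c (2.57), Tnfrsf21 (1.83), Tnfrsf12a (1.53), Tnfrsf22 (1.18), Tnfrsf1a (1.04) and Tnfrsf10b (0.99), and Cd40 fell (-0.82), each with an edgeR adjusted p under 0.05. Tnfrsf13c had at most 5.27 normalized counts at P5 and passed the filter through P12, where it is high. Tnfrsf1a, the main receptor of TNF, went from 643 ± 21.0 to 1324 ± 200.4 normalized counts (SD, n = 4). Tnfrsf21 (death receptor 6) went from 173 ± 1.76 to 613 ± 171. Tnfrsf11a, the receptor RANK of osteoclast precursors, rose (log2 fold change 0.60, edgeR adjusted p = 0.0324), a call kept in 12 of 18 alternative fits, and its decoy Tnfrsf11b (osteoprotegerin) had a log2 fold change of 0.70 that did not pass the test (SE 0.35, edgeR adjusted p = 0.108). Under scaling by total count 12 of the 20 were called as higher and 1 as lower, and the sign of 5 uncalled genes changed. Osteoclast markers (Acp5, Ctsk, Calcr, Ocstamp, Dcstamp and Atp6v0d2) summed to 49.2 to 78.4 CPM at P5 and to 183 to 489 CPM at P12, and leukocyte markers (Ptprc, Cd68, Csf1r, Cd3e and Cd79a) to 30.7 to 44.6 CPM and 63.5 to 94.99 CPM. Their part in these changes was not tested.

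Of 17 other TNF ligand genes, 7 passed the filter, of which 5 rose, 0 fell and 2 did not pass the test (median log2 fold change 1.44), beside 28.8% of all tested genes that rose. The 5 were Tnfsf11 (3.03), Tnfsf9 (2.98), Tnfsf10 (2.22), Ltb (1.44) and Tnfsf12 (1.06), each with an edgeR adjusted p under 0.05. All were scarce at P5, with means between 2.84 and 24.8 normalized counts. Tnfsf11 and Tnfsf9 had at most 5.59 normalized counts in any P5 library and passed the filter through P12. A gene this scarce at P5 is tested only where it is higher at P12. The number of risers among the tested ligand genes is therefore partly set by the filter. Tnfsf11, which encodes RANKL, the ligand that drives osteoclast formation, had 44.7, 48.1, 25.9 and 10.04 normalized counts in P12 replicates 1 to 4 and at most 5.59 at P5. The P12 libraries had the same order by their osteoclast marker sums of 400.0, 489, 302 and 183 CPM and by their oral mucosa marker sums of 3042, 3690, 2365 and 696 CPM, and the part of either in the level of Tnfsf11 was not tested. Tnfsf12, called in 15 of 18 alternative fits, shares 48.3% of its exonic bases with another gene, and its value is uncertain for that reason. With at least 10 counts in every library, 2 of these ligand genes were called.

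The kinases, adaptors and transcription factors of NF-kB signalling downstream of Edar were listed as 23 genes, all of which passed the filter. Of these, 9 rose, 2 fell and 12 did not pass the test, with a median log2 fold change of 0.22, and thus 11 of 23 were called where 57.2% of all genes were. The risers with the largest changes were Traf1 (2.30), Relb (1.15), Nfkb2 (0.83), Nfkb1 (0.68), Map3k14 (0.51) and Rela (0.39), each with an edgeR adjusted p under 0.05. Traf1 had 7.71 to 19.1 normalized counts at P5 and passed the filter through P12, where it is high. The call of Map3k14 was kept in 10 of 18 alternative fits. Relb and Nfkb2 encode the subunits of the noncanonical NF-kB dimer, Map3k14 encodes the kinase NIK that activates it, and Nfkb1 and Rela encode those of the canonical dimer. Relb went from 116 ± 10.6 to 259 ± 34.9 normalized counts (SD, n = 4). Nfkb2 shares 18.1% of its exonic bases with other genes. The 2 genes that fell were Tab2 (-0.49) and Tab3 (-0.48), which encode the ubiquitin-binding partners of the kinase downstream of Traf6. The inhibitor gene Nfkbia, itself induced by NF-kB, had a log2 fold change of 0.21 that did not pass the test (SE 0.10, edgeR adjusted p = 0.102). The calls depended on the scaling: by total count 21 of the 23 genes were called as higher and 0 as lower. Tab2 and Tab3 were then at -0.12 and -0.11 without passing the test. The sign changed in 5 genes, none of them called with TMM. The 4 leukocyte and 5 osteoclast markers that passed the filter rose over the same ages (median log2 fold changes 1.06 and 2.10). The leukocyte marker Cd3e and the osteoclast marker Calcr did not pass it. The mean of Calcr was 11.1 normalized counts at P5 and 4.48 at P12. The part of these markers in the NF-kB genes was not tested.

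The genes known as targets of Eda and Edar in hair, tooth and gland buds moved in both directions. Of 15 listed genes 10 passed the filter, of which 3 rose, 6 fell and 1 (Ctgf, 0.07) did not pass the test, with a median log2 fold change of -0.40, beside 28.8% of all tested genes that rose and 28.4% that fell. Shh, the hedgehog ligand of dental epithelium, fell most (-8.32, edgeR adjusted p = 2.5e-09). Its normalized counts were 905, 907, 1226 and 1533 in P5 replicates 1, 3, 4 and 5 and between 2.20 and 5.02 at P12. Foxi3, a transcription factor of ectodermal placodes, had 117 to 186 normalized counts at P5 and 0 to 20.1 at P12 (log2 fold change -4.44, edgeR adjusted p = 7.2e-05). Both genes passed the filter through P5, where they are high. Their highest P5 library was replicate 5 and their highest P12 library was replicate 4. The other falls were in Sostdc1 (-1.97) and Fst (-1.01), which encode secreted inhibitors of BMP and activin signals, and in Wnt10a (-0.55, called in 17 of 18 alternative fits) and Lrp4 (-0.25, called in 15 of 18). Wnt10b, a Wnt ligand, rose from 277 ± 82.6 to 5196 ± 297 (SD, n = 4; log2 fold change 4.24, edgeR adjusted p = 1.6e-08), and Ltb (1.44) and the chemokine gene Cx3cl1 (1.12) rose as well. Ltb had at most 17.9 normalized counts at P5 and passed the filter through P12, where it is higher. Shh shares 28.4% of its exonic bases with other genes, of which the one sharing most had at most 3 counts in any library. Ctgf shares 23.2% with a gene that had at most 26 counts in any library. By total count 4 genes were called as higher and 4 as lower, and Lrp4 changed sign. These genes have other regulators, and whether their changes depend on Eda or Edar was not tested.

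**Figure D4:**
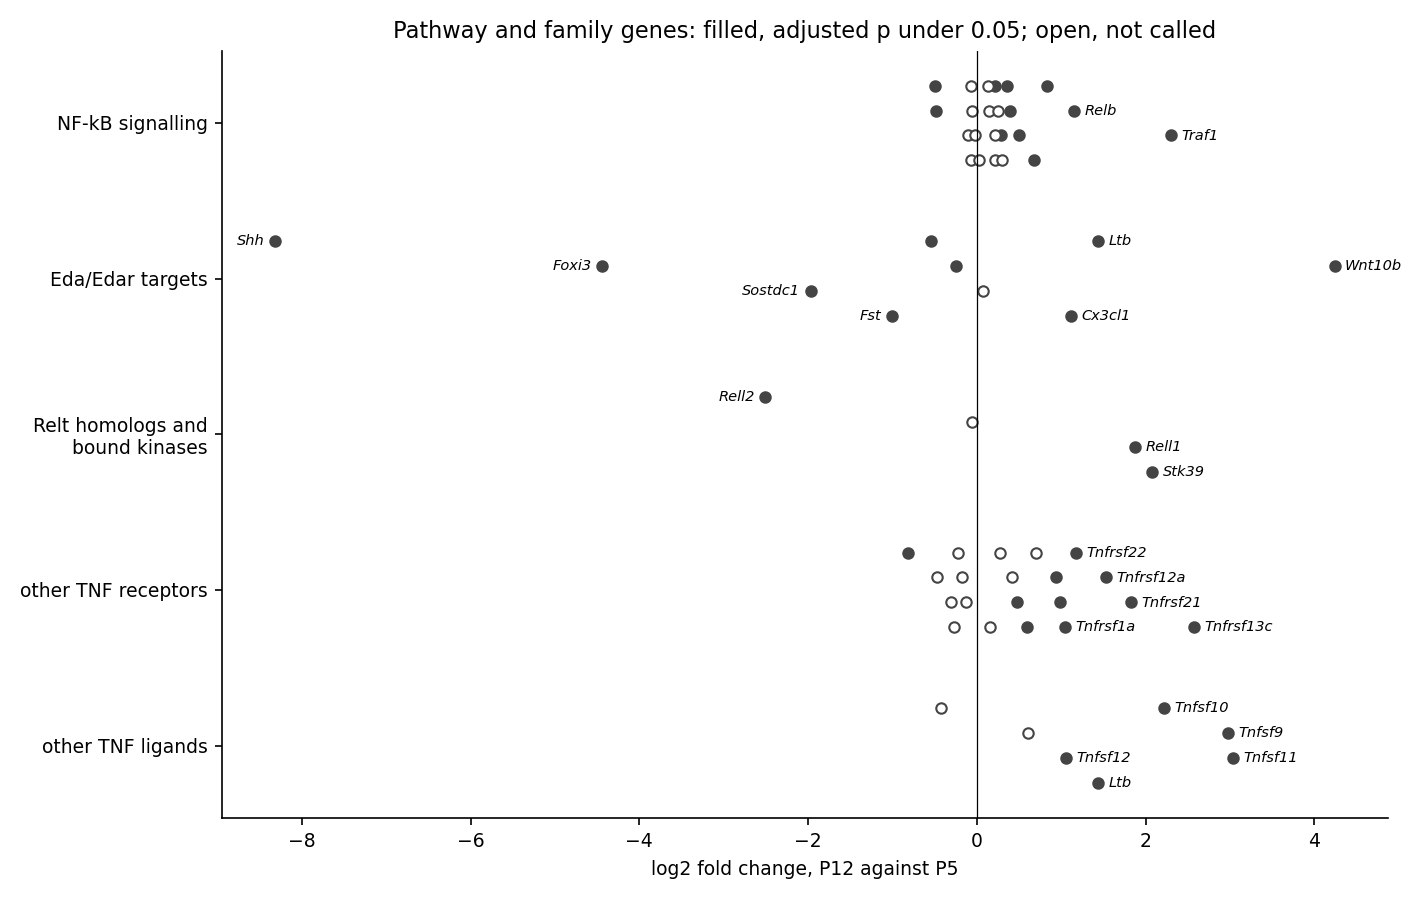
Log2 fold changes (horizontal axis, P12 against P5) of the tested genes of 5 lists (rows), filled where the edgeR adjusted p is under 0.05 and open where it is not, with names on called genes that changed by more than 1 log2 unit. The target genes spread from -8.32 (Shh) to 4.24 (Wnt10b), and by total count the NF-kB row has 21 higher and 0 lower genes in place of 9 and 2.

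Of the 4 genes listed as acting with Relt or related to it, 2 rose, 1 fell and 1 did not pass the test. Of all tested genes, 28.8% rose and 28.4% fell. Relt has the homologs Rell1 and Rell2, and its protein binds the kinases encoded by Oxsr1 and Stk39, which control ion cotransporters. Rell1 rose (log2 fold change 1.88, SE 0.18, edgeR adjusted p = 4.6e-06), with 596, 540.0, 617 and 573 normalized counts in P5 replicates 1, 3, 4 and 5 and 1470, 1932, 2151 and 2987 in P12 replicates 1 to 4. Stk39 rose (2.08, SE 0.10, edgeR adjusted p = 3.6e-08), from between 205 and 288 at P5 to between 934 and 1108 at P12. Rell2 fell (-2.51, SE 0.31, edgeR adjusted p = 4.0e-05), from between 29.6 and 52.9 to between 5.56 and 8.44, but it shares 44.4% of its exonic bases with another gene. Rell2 also passed the filter through P5, where it is high, and had at most 10 counts in any P12 library. Oxsr1 had a log2 fold change of -0.05 (SE 0.08, edgeR adjusted p = 0.623), and by total count it was called as higher (0.32, edgeR adjusted p = 0.00488).

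The genes most like each member were found by Pearson's correlation of log2 normalized counts over the 8 libraries, among 11345 tested genes with a mean of at least 100. Such a likeness mostly follows the difference between the ages where there is one, and the 3 nearest of 11345 genes are extremes by choice. The genes most like Relt were Numb (r = 0.9997), Fam49a (r = 0.9996) and Ssr4 (r = 0.9991), with log2 fold changes of -3.83, -1.54 and -1.498. Numb, which encodes an inhibitor of Notch signalling, had 21708 to 23731 normalized counts at P5 and 1397 to 1797 at P12, with the highest P5 library in replicate 5 and the highest P12 library in replicate 3, as in Relt. Eda was most like Gpatch2 (r = 0.993), Dcaf7 (r = 0.988) and Sik2 (r = 0.987). Edar was most like Fbxw5 (r = 0.960), Cul4a (r = 0.957) and Pogz (r = 0.956). Traf6 was most like Sec62 (r = 0.986), H3f3b (r = 0.965) and Smim14 (r = 0.957). Tnfrsf19 was most like Colec12 (r = 0.960), Rusc2 (r = 0.956) and Mdk (r = 0.939), and all of these had their highest P12 level in replicate 1. Edaradd was most like Zfp788 (r = 0.941), Atf4 (r = 0.903) and Fis1 (r = 0.896). No gene was among the 3 nearest of more than 1 member.

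**Figure D5:**
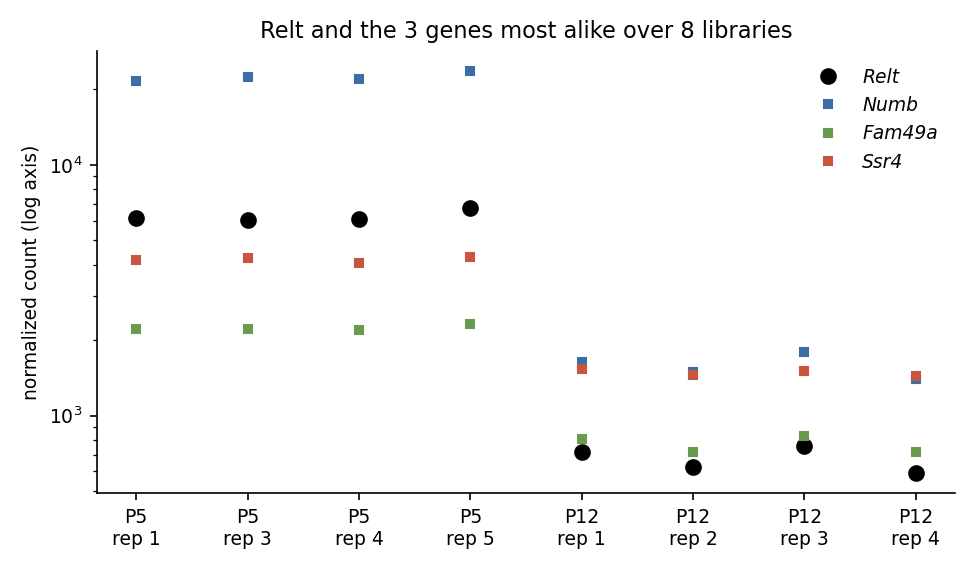
Normalized counts (vertical log axis) of Relt (black circles) and the 3 genes most like it (squares) in the 8 libraries (horizontal axis; replicates have no order). All 4 genes are high in every P5 library and low in every P12 library, with Relt between 590.3 and 760 at P12.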

How the data were processed

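RNA-seq was performed on poly(A)-captured RNA of P5 and P12 first molar enamel organs, 4 pooled libraries each. The authors deposited raw counts of reads for each gene, as whole numbers, along with gene names, coordinates and lengths (in bases). The submitters' processing notes name CASAVA and mm39, but 53585 of the 54532 genes have the GRCm38 coordinates of GENCODE M21, all 7 members included, and these are given here. The aligner, counter and use of strand are not given in the sources used here. No member shares exonic bases with another gene in GENCODE M21. Promoter sequences are from RefSeq (GRCm38.p6).

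In R 4.3.3, counts were tested by edgeR 4.0.16 (filterByExpr, TMM, glmQLFit, glmQLFTest) without covariates, and p-values were adjusted by Benjamini-Hochberg, with a threshold of 0.05. Alternatives were DESeq2 1.42.0, limma-voom (limma 3.58.1), DESeq2 size factors, scaling by total count, TMM without the 20 most abundant genes, each library left out, no filter, a filter of 10 or more counts per library, P5 replicate 5 and P12 replicate 4 left out together, and the replicate number as a block. Exact permutation tests enumerated all 70 arrangements, with a pseudocount of 1 (0.5 as an alternative). Python packages were pandas 2.3.3, matplotlib 3.10.9, numpy 2.4.6 and scipy 1.17.1. The tests were tried on simulated data. The floor set by counting error was taken as 3 counts (0.136 to 0.181 CPM). No libraries were duplicates, as every pair of the same age differed beyond counting noise. P-values measure the spread between pools.

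The members and gene lists were chosen with earlier results of these data known. Named are all members, the genes of each list with an adjusted p under 0.05 in order of change (up to 6 per direction), all genes of lists of up to 4, Rela, Nfkbia, Tnfrsf11a, Tnfrsf11b and Tnfsf11, the cell type markers, and the 3 genes most like each tested member. Ctgf, Nfkb2 and others are given by the symbols of the deposited table. No set test was run.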

Additional observations from a re-analysis of the deposited data

Results flagged for a closer look

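In 14 groups of 4 libraries (7 genes at each age), 2 held a library far from the other 3 by Dixon's criterion, where chance gives 0.7. Eda2r had 21.3 normalized counts in P12 replicate 1, against 9.04 to 11.0 in the other P12 libraries. Relt had 6709 normalized counts in P5 replicate 5, against 6008 to 6124 in the other P5 libraries.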

How the results depend on the processing

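Of 316 values recomputed under an alternative, 294 were unchanged in call and direction or, for counts and for values with no test, moved by less than 1.5 times or by less than their spread over libraries. The fold changes of Eda, Edar and Relt kept their call and direction in all fits. The change of the Edar to Eda ratio, which has no call, lay between -0.33 and 0.018 with single libraries left out, and so its sign depended on 1 library (P5 replicate 5). Scaling by total count gave 0.42 (called) for Edaradd and reversed Traf6 (0.18) and Tnfrsf19 (0.16), with 5 members and 21 NF-kB genes called, and it called 8885 genes as higher and 2330 as lower in place of 4735 and 4676. The log2 fold change of Eda2r was 1.46 by DESeq2 and 1.31 without P5 replicate 5 and P12 replicate 4, neither called, and with single libraries left out it lay between 1.17 and 1.96, called in 2 of the 5 such fits that could test it. Without P5 replicate 5 and P12 replicate 4 Traf6 was called (-0.27). With single libraries left out, Edaradd lay between -0.045 and 0.11, Traf6 between -0.24 and -0.14, Tnfrsf19 between -0.37 and -0.12, the members called between 3 and 5 (5 without P12 replicate 4), and all genes called between 8708 and 10030. With at least 10 counts in every library 2 TNF ligand genes were called, because fewer were tested. Without division by length, 3 of 7 ranks at P12 stayed the same. Other causes were not tested.

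Replicate numbers 1, 3 and 4 occur at both ages, but same-numbered libraries did not deviate together (correlations 0.0447, 0.00514 and -0.0361). These values show no pairing by number, but they cannot exclude one, since other differences between pools can hide it. With the replicate number as a block over these 6 libraries 7710 genes were called, against 8117 in the same libraries with no block, and Edaradd reversed to -0.056 with the block and -0.048 without it. The block changed no call of a member. Depth limits Eda2r most, with at most 29 reads in a library.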
